A study of Mus musculus with 4 samples.

Results

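Axon guidance genes were described in the mouse forebrain at E12.5 (embryonic day), namely the ligands and receptors of the ephrin, semaphorin, netrin and Slit systems. They were chosen by symbol (Epha, Ephb, Efna, Efnb, Sema3 to Sema7, Plxna to Plxnd, Ntn, Slit, Robo, Nrp, Unc5 and Dcc), which matched 72 of 43346 rows of the deposited tables, and 50 of them, 26 ligands and 24 receptors, reached 10 CPM (UMI counts of a gene per 1000000 counted) in at least 1 summed group of cells. Among all rows, 10319 reached that level. The droplet single-cell RNA data came from 4 libraries of wild-type embryos (C57BL/6 in the study's methods, sexes pooled, tissue of more than 4 embryos pooled), 1 each from the cortex (CTX) and from the 3 ganglionic eminences, lateral (LGE), medial (MGE) and caudal (CGE), with no mutation, treatment or transgene. The labels describe sorting of live cells, whereas the methods describe wild-type cells as unsorted, and this was not settled.

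These systems steer growing axons and migrating neurons through contact or over a distance. Ephrins are bound to the membrane and act on Eph receptor kinases of neighbouring cells, whereas semaphorins, secreted or membrane-bound, act on plexins, with neuropilins as co-receptors for the secreted class 3. Netrins attract through Dcc and can repel through Unc5 receptors, and Slits repel through Robo receptors. In the embryonic telencephalon such cues sort migrating interneurons away from the striatum and guide cortical and thalamic axons.

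High-Nes cells (Nestin, a marker of radial glia in the ventricular zone) and high-Dcx cells (Doublecortin, a marker of young neurons) were taken at a natural log of (1 + UMIs per 10000) above 1.5 for that gene. UMIs are unique molecular identifiers, each counting 1 captured transcript. Cells past both limits, of which there were 15, 70, 25 and 16 in CTX, LGE, MGE and CGE, were left out of the sums, which held 860, 577, 510 and 165 high-Nes cells and 777, 2035, 2171 and 2258 high-Dcx cells in CTX, LGE, MGE and CGE. The UMIs of all genes per sum ran from 1515986 (high-Nes, CGE) to 15647435 (high-Dcx, CGE). Markers matched the labels: the radial glia list, which includes Nes, summed to 4088 to 11538 CPM in high-Nes and 666 to 1462 CPM in high-Dcx cells, the cortical glutamatergic list to 2915 CPM in high-Dcx cells of CTX and 0.347 to 90.2 CPM in those of the eminences, and the GABAergic list to 80.5 CPM against 2233 to 2720 CPM. Markers of endothelial cells, pericytes or mesenchyme, and microglia or macrophages were higher in the high-Nes sums, up to 64.9 CPM for endothelial cells (MGE), 81.1 CPM for pericytes or mesenchyme (CGE) and 161 CPM for microglia or macrophages (CGE), against at most 11.1 CPM in any high-Dcx sum. Erythroid markers were at 86.2, 57.3, 60.5 and 20.4 CPM in high-Nes and 87.5, 79.6, 81.2 and 21.8 CPM in high-Dcx sums of CTX, LGE, MGE and CGE. Each pair of libraries shared 4 to 15 cell barcodes. Values of the 4 libraries are given below in the order CTX, LGE, MGE, CGE, and levels were compared between cells for 1 gene, not between genes.

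The members nearest to the limit of 10 CPM were Ephb3 (10.6 CPM in its highest sum) inside it and Unc5a (8.97 CPM) outside it. The 22 rows below it were Sema4a, Efna1, Unc5c, Epha10, Epha8, Epha2, Sema3d, Sema3e, Epha1, Sema4f, Ntn5, Robo4, Sema3b, Unc5b, Slit3, Unc5a, Sema3g, Epha6, Plxnb3 and the antisense RNAs Plxna4os1, Plxna4os2 and Plxna4os3, with no UMI for Epha1, Ntn5 and Plxna4os3. Of these, 5 passed the low-count filter of the class test and are not counted among the members below.

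High-Dcx cells carried more transcripts of many guidance receptors and ligands than high-Nes cells of the same library. Among 49 members tested, 23 were called higher in high-Dcx cells and 6 lower (edgeR, adjusted p below 0.05 and log2 fold change beyond 0.25), against 27.9% higher and 27.4% lower of all 12311 genes tested, and 20 were neither. Their median log2 fold change was 0.89, against 0.02 over all genes tested. Members had to reach 10 CPM in at least 1 summed group and the other genes did not, so these shares and medians compare unlike sets. Plxna4, for example, had at most 3.30 CPM in high-Nes cells and Ephb4 at most 5.76 CPM in high-Dcx cells, so each passed through 1 class only. The effect of that limit on the counts was not tested. The rise was led by the plexin Plxna4, the neuropilin Nrp2, the semaphorin Sema6b, the netrin receptor Unc5d and the Slit receptor Robo2, and the fall by the netrin Ntn1, the ephrin-B receptor Ephb4 and the semaphorins Sema5a and Sema5b. Receptors gave 11 higher and 1 lower of 23, and ligands 12 higher and 5 lower of 26. Plxnd1, a receptor of Sema3e, had too few UMIs for the test. Since each region had 1 library, the test rests on 8 sums of 4 different regions, and the p-values measure the spread of the change across those regions.

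**Figure D1:**
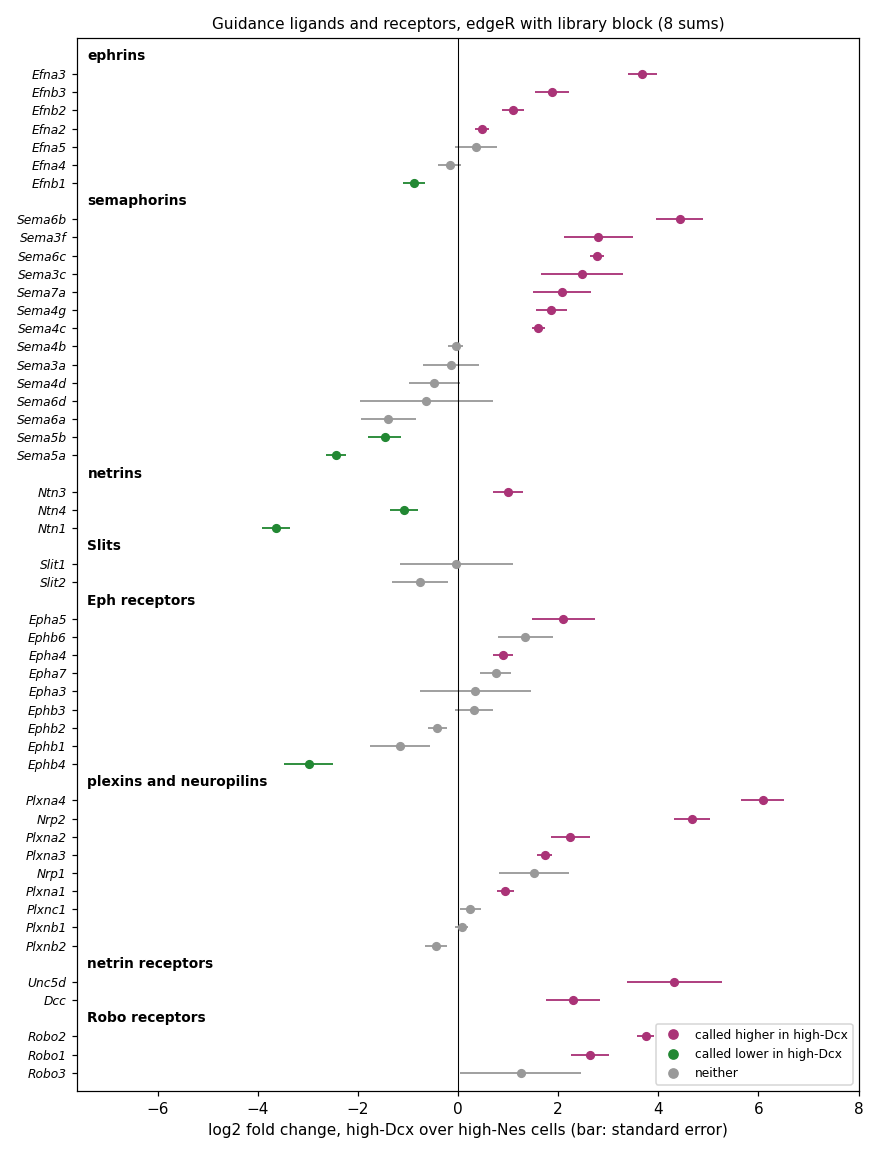
Log2 fold change of 49 guidance ligands and receptors, high-Dcx over high-Nes cells, with the standard error as a bar, grouped by family on the vertical axis. Purple points were called higher (23), green points lower (6) and grey points neither (20), and Plxna4 at 6.08 and Ntn1 at -3.64 are the extremes.

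The plexins and neuropilins, receptors of semaphorins, were called higher for 5 of 9 tested and lower for 0 (Plxna4, Nrp2, Plxna2, Plxna3 and Plxna1). Over all genes tested the shares were 27.9% higher and 27.4% lower. Plxna4 (chr6:32144268-32588192, GRCm38, minus strand), through which class 3 and class 6 semaphorins signal, stood at 1.90, 0.202, 0.809 and 3.30 CPM in high-Nes cells and 140, 28.7, 86.6 and 40.1 CPM in high-Dcx cells (log2 fold change 6.08 ± 0.43, edgeR adjusted p = 0.000324). The lowest high-Dcx library lay above the highest high-Nes library, and CTX was the highest and LGE the lowest of the high-Dcx libraries. Nrp2 (chr1:62703285-62818695, plus strand), the neuropilin that binds Sema3f, stood at 2.44, 0, 1.01 and 1.32 CPM against 42.0, 3.03, 17.8 and 93.7 CPM (log2 fold change 4.67 ± 0.37, edgeR adjusted p = 0.000405). The 0 in LGE high-Nes cells is a count of 0 UMIs, which allows up to 0.607 CPM at 3 counts, and every high-Dcx library was again above every high-Nes one. Plxna2 (chr1:194618218-194816869, plus strand), a receptor of class 6 semaphorins, was present in both classes at 31.0, 92.0, 153 and 47.5 CPM against 351, 338, 341 and 218 CPM (log2 fold change 2.25 ± 0.38, edgeR adjusted p = 0.00455). Its high-Nes values spanned CTX as the lowest to MGE as the highest, while its high-Dcx values lay close together except for a lower one in CGE. Nrp1, the neuropilin of Sema3a, was higher in high-Dcx cells in 3 of 4 libraries and did not pass the test (18.7, 9.71, 42.1 and 69.3 CPM against 273, 34.4, 54.9 and 64.4 CPM, log2 fold change 1.52 ± 0.71, edgeR adjusted p = 0.116). Plxnb2, a receptor of class 4 semaphorins, (log2 fold change -0.44 ± 0.23, edgeR adjusted p = 0.144) and Plxnc1, the receptor of Sema7a, (log2 fold change 0.25 ± 0.20, edgeR adjusted p = 0.335) did not pass it either.

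Both netrin receptors among the members, Unc5d and Dcc, were called higher. Netrin receptors that were not chosen by symbol are not in this count. Unc5d (chr8:28646717-29219636, minus strand) stood at 0.543, 1.62, 0.404 and 0 CPM in high-Nes and 50.8, 3.87, 4.99 and 15.1 CPM in high-Dcx cells (log2 fold change 4.32 ± 0.95, edgeR adjusted p = 0.0112). Dcc, the netrin receptor for attraction, stood at 2.85, 2.43, 8.29 and 3.96 CPM against 45.3, 10.4, 18.2 and 9.97 CPM (log2 fold change 2.295 ± 0.53, edgeR adjusted p = 0.0134). For both genes CTX was the highest high-Dcx library, and no high-Dcx library fell to the level of a high-Nes one. The ligand moved the other way: Ntn1 (chr11:68209364-68400823, minus strand) stood at 0.136, 57.9, 32.6 and 15.2 CPM in high-Nes and 0, 6.34, 2.15 and 0.703 CPM in high-Dcx cells (log2 fold change -3.64 ± 0.28, edgeR adjusted p = 0.000394). In CTX it was near 0 in both classes, with 1 UMI and 0 UMIs, so its fall was carried by the 3 eminences. Ntn4, a netrin that binds laminin, also fell, from 5.70, 20.2, 12.9 and 10.6 CPM to 3.97, 5.07, 6.38 and 5.24 CPM (log2 fold change -1.08 ± 0.28, edgeR adjusted p = 0.0193), with the lowest high-Nes library, CTX, inside the range of the high-Dcx ones. The call of Ntn4 was lost on leaving out any one of LGE, MGE or CGE (adjusted p of 0.0624, 0.0640 and 0.0554, edgeR). Ntn3 was called higher overall but was lower in LGE (3.80, 8.50, 6.87 and 8.58 CPM against 10.7, 7.96, 17.1 and 17.1 CPM, log2 fold change 1.00 ± 0.30, edgeR adjusted p = 0.0324). That call was lost without CTX, MGE or CGE (adjusted p of 0.0692, 0.127 and 0.0990, edgeR).

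Of the Robo genes among the members, Robo1 and Robo2 were called higher and Robo3 was not. Robo2 (chr16:73891839-74411825, minus strand) stood at 19.0, 16.6, 9.70 and 9.89 CPM against 203, 183, 188 and 111 CPM (log2 fold change 3.75 ± 0.17, edgeR adjusted p = 0.000179), and Robo1 (chr16:72308306-73046095, plus strand) at 1.49, 16.8, 16.6 and 14.5 CPM against 32.7, 78.7, 68.3 and 63.3 CPM (log2 fold change 2.64 ± 0.38, edgeR adjusted p = 0.00252). Every high-Dcx value of both genes was above every high-Nes value. CTX had the lowest Robo1 of both classes, while its Robo2 in high-Dcx cells was the highest of the 4. Robo3 was lower in CTX and higher in LGE, MGE and CGE (22.0, 1.62, 0.202 and 0 CPM against 5.34, 18.2, 1.60 and 3.13 CPM, log2 fold change 1.25 ± 1.21, edgeR adjusted p = 0.414). Without CTX it was called higher (3.61 ± 0.42, edgeR adjusted p = 0.00135), with 8, 1 and 0 UMIs in the high-Nes sums of LGE, MGE and CGE. The Slits themselves, Slit1 and Slit2, were not called, and Slit1 went in opposite directions in CTX and in the eminences, as given below.

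Among 14 semaphorins 7 were called higher (Sema6b, Sema3f, Sema6c, Sema3c, Sema7a, Sema4g and Sema4c) and 2 lower (Sema5a and Sema5b), against 27.9% and 27.4% of all genes tested. The membrane-bound Sema6b stood at 1.22, 0.607, 0 and 1.32 CPM in high-Nes and 14.4, 14.0, 10.7 and 23.8 CPM in high-Dcx cells (log2 fold change 4.43 ± 0.47, edgeR adjusted p = 0.000937), and Sema6c at 8.83, 13.1, 19.4 and 14.5 CPM against 67.2, 94.4, 95.2 and 96.0 CPM (log2 fold change 2.78 ± 0.14, edgeR adjusted p = 0.000188). Neither gene overlapped between classes, and Sema6c had one of the smallest standard errors among the members. The secreted Sema3f, a repellent that acts through Nrp2, stood at 3.94, 0.607, 0.809 and 0.660 CPM against 6.41, 16.6, 7.91 and 11.1 CPM (log2 fold change 2.80 ± 0.69, edgeR adjusted p = 0.0167), and Sema3c at 0.679, 6.07, 1.82 and 1.32 CPM against 30.5, 11.4, 3.40 and 13.4 CPM (log2 fold change 2.48 ± 0.83, edgeR adjusted p = 0.0460). The change was smallest in CTX for Sema3f and in LGE and MGE for Sema3c, whose groups overlap. Both calls were lost without some single libraries: Sema3f without LGE, MGE or CGE (adjusted p of 0.0531, 0.0674 and 0.0594, edgeR) and Sema3c without MGE or CGE (0.0644 and 0.134, edgeR adjusted p). Sema7a, which is anchored to the membrane by a lipid, (log2 fold change 2.08 ± 0.57, edgeR adjusted p = 0.0247) and Sema4c (log2 fold change 1.60 ± 0.13, edgeR adjusted p = 0.000466) were higher in 4 of 4 libraries. Sema7a was no longer called without MGE or CGE (adjusted p of 0.0546 and 0.0565, edgeR).

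Class 5 semaphorins, membrane proteins with thrombospondin repeats, went the other way. Sema5a (chr15:32244810-32696341, plus strand) stood at 69.1, 51.0, 11.9 and 25.7 CPM in high-Nes and 11.1, 13.03, 1.80 and 3.32 CPM in high-Dcx cells (log2 fold change -2.44 ± 0.20, edgeR adjusted p = 0.00047), and Sema5b at 31.5, 50.8, 57.4 and 64.0 CPM against 4.12, 18.2, 34.1 and 24.1 CPM (log2 fold change -1.46 ± 0.33, edgeR adjusted p = 0.0117). Within each library both genes were lower in high-Dcx cells, although the ranges over libraries overlap. Sema6a, a ligand of Plxna2 and Plxna4, was lower in high-Dcx cells of the eminences and higher in those of CTX, and did not pass the test (5.30, 45.3, 65.7 and 114 CPM against 10.7, 10.6, 14.7 and 29.7 CPM, log2 fold change -1.39 ± 0.54, edgeR adjusted p = 0.0728).

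**Figure D2:**
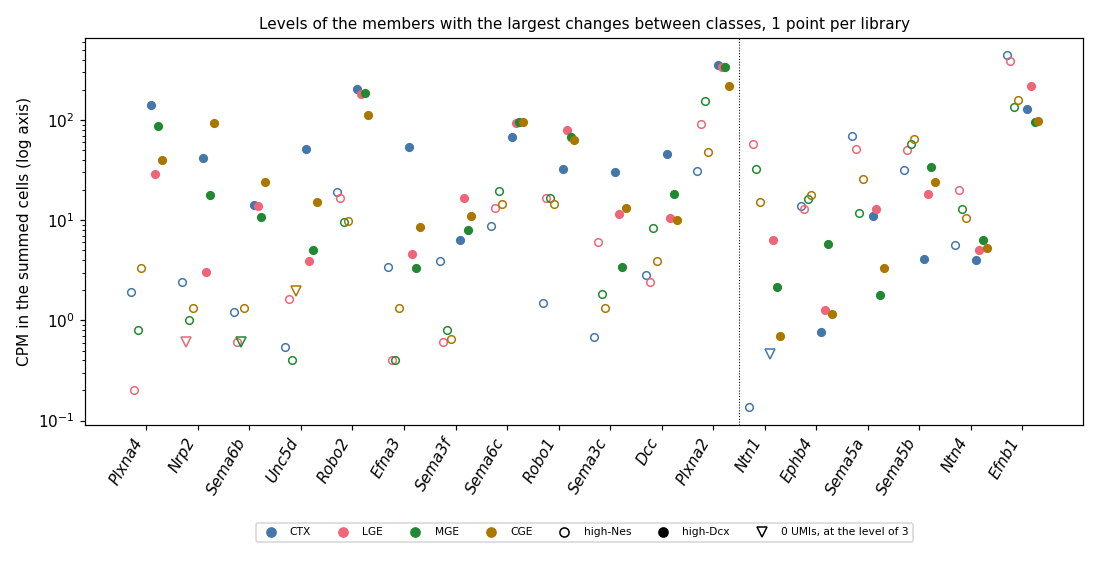
CPM (log axis) of the 12 members with the largest rise and the 6 called lower, 1 point for each of 4 libraries, open for high-Nes and filled for high-Dcx cells. Triangles mark a count of 0 at the level that 3 UMIs would give, and Plxna4 and Nrp2 show high-Dcx points above every high-Nes point.

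Ephrins were called higher for 4 of 7 (Efna3, Efnb3, Efnb2 and Efna2) and lower for 1 (Efnb1), against 27.9% and 27.4% of all genes tested. Efna3 (chr3:89313899-89322965, minus strand), a lipid-anchored ligand of EphA receptors, stood at 3.39, 0.405, 0.404 and 1.32 CPM in high-Nes and 54.0, 4.65, 3.33 and 8.56 CPM in high-Dcx cells (log2 fold change 3.68 ± 0.29, edgeR adjusted p = 0.000414). It was higher in every library, most of all in CTX, and MGE high-Dcx cells stood just below CTX high-Nes cells. Efnb1 (chrX:99136130-99148991, plus strand), a transmembrane ligand of EphB receptors, stood at 442, 391, 134 and 160.3 CPM against 127, 217, 95.2 and 97.1 CPM (log2 fold change -0.88 ± 0.22, edgeR adjusted p = 0.0166). CTX and LGE held the highest Efnb1 of both classes, and without LGE its adjusted p was 0.0508 (edgeR). Efna2 was lower by a small margin in CGE and higher in the other 3 libraries (61.5, 80.5, 87.1 and 76.5 CPM against 74.4, 137, 121 and 75.5 CPM, log2 fold change 0.47 ± 0.14, edgeR adjusted p = 0.0318). The call of Efna2 was lost without LGE or MGE (adjusted p of 0.102 and 0.114, edgeR).

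Of 9 Eph receptors 2 were called higher (Epha5 and Epha4), 1 lower (Ephb4) and 6 neither. Those shares, 22.2% higher and 11.1% lower, were below the 27.9% and 27.4% over all genes tested. Epha5 (chr5:84054761-84417382, minus strand) stood at 498, 316, 31.1 and 253 CPM in high-Nes and 1193, 431, 594 and 1346 CPM in high-Dcx cells (log2 fold change 2.10 ± 0.63, edgeR adjusted p = 0.0322). Within each library high-Dcx cells were higher, by the most in MGE, where high-Nes cells were far below those of the other regions. Its call was lost without CGE (1.95 ± 0.83, edgeR adjusted p = 0.120). Epha4, which binds ephrins of both classes, stood at 272, 253, 277 and 197 CPM against 295, 411, 714 and 402 CPM (log2 fold change 0.89 ± 0.20, edgeR adjusted p = 0.0119), with the smallest change in CTX, and its call was lost without CGE (adjusted p of 0.0551, edgeR). Ephb4 (chr5:137350109-137378669, plus strand), the receptor of Efnb2 best known from veins, stood at 14.0, 12.9, 16.4 and 17.8 CPM in high-Nes and 0.763, 1.27, 5.76 and 1.15 CPM in high-Dcx cells (log2 fold change -2.98 ± 0.49, edgeR adjusted p = 0.00402). The high-Nes libraries lay within 12.9 to 17.8 CPM, and MGE was the highest of the high-Dcx libraries. Endothelial markers were summed at 22.4, 3.44, 64.9 and 6.60 CPM in the high-Nes cells and at most 3.20 CPM in the high-Dcx cells, and with non-neural cells removed the log2 fold change of Ephb4 was -3.01.

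The remaining calls were higher in high-Dcx cells in 4 of 4 libraries. The transmembrane ligand Efnb3 stood at 13.3, 16.6, 12.9 and 17.2 CPM against 24.4, 37.9, 83.0 and 100.4 CPM (log2 fold change 1.88 ± 0.35, edgeR adjusted p = 0.00594), with the largest change in MGE and CGE. Efnb2, the ligand of Ephb4, stood at 74.7, 89.6, 12.9 and 15.8 CPM against 126, 119.7, 37.3 and 49.0 CPM (log2 fold change 1.10 ± 0.22, edgeR adjusted p = 0.00794), and CTX and LGE were above MGE and CGE in both classes. Plxna3 (log2 fold change 1.73 ± 0.15, edgeR adjusted p = 0.00049), Plxna1 (log2 fold change 0.95 ± 0.17, edgeR adjusted p = 0.00576) and Sema4g (log2 fold change 1.86 ± 0.31, edgeR adjusted p = 0.00394) had high-Dcx levels of 33.9 to 53.0, 20.6 to 52.3 and 18.2 to 25.6 CPM.

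Members that were not called include some with 1 direction in all libraries and some whose libraries disagreed. Ephb6, an Eph receptor without kinase activity, was higher in high-Dcx cells in 4 of 4 libraries (log2 fold change 1.34 ± 0.55, edgeR adjusted p = 0.0828), and Ephb2, a receptor of ephrin-B ligands, was lower in 4 of 4 (log2 fold change -0.41 ± 0.18, edgeR adjusted p = 0.105). Sema3a, the secreted repellent of Nrp1, stood at 18.7, 23.1, 1.62 and 7.26 CPM in high-Nes and 4.43, 17.3, 4.02 and 13.9 CPM in high-Dcx cells (log2 fold change -0.14 ± 0.56, edgeR adjusted p = 0.856), lower in CTX and LGE and higher in MGE and CGE. Slit2 stood at 22.0, 1.42, 20.6 and 3.96 CPM against 8.85, 3.38, 4.72 and 3.71 CPM (log2 fold change -0.75 ± 0.56, edgeR adjusted p = 0.292), with CTX and MGE the highest of the high-Nes libraries. Epha7, a receptor of ephrin-A ligands, was most abundant in CTX in both classes (33.7, 4.45, 6.87 and 11.9 CPM against 43.5, 14.9, 6.03 and 21.4 CPM, log2 fold change 0.75 ± 0.32, edgeR adjusted p = 0.0914). Ephb3, Efna4, Efna5, Sema4b, Sema4d and Plxnb1 had log2 fold changes between -0.48 and 0.37, and none of the 6 passed the test (edgeR).

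Without CTX, 11 members in place of 6 were called lower. The 6 were among them, joined by Sema6a (log2 fold change -1.97 ± 0.12, edgeR adjusted p = 0.000194), Ephb1 (-1.77 ± 0.36, edgeR adjusted p = 0.00908), Sema6d (-1.75 ± 0.41, edgeR adjusted p = 0.0140), Sema4d (-1.17 ± 0.38, edgeR adjusted p = 0.0439) and Slit1 (-0.9997 ± 0.21, edgeR adjusted p = 0.0103). These names were taken after their values were seen. The count of higher calls was 23 without CTX, where Robo3 entered and Ntn3 left, and fell to 17 without CGE. The share called over all genes is not given for these fits, so the counts are not set against it.

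The start regions of the members that moved most are shown for comparison, since the class test set Nrp2 and Sema6b at one end and Ephb4 and Sema5a at the other. The sequences are the 250 bases before the RefSeq transcript start (GRCm38.p6), 5′ to 3′ on the strand of the gene, and of the 50 members 40 had an entry. Plxna4 and Ntn1 had none in the table. Capitals mark matches to the motifs searched on both strands, CAGCTG and CAGATG (E-boxes), TAATTA (a homeodomain core) and GGGCGG (a GC box, whose matches may overlap).
Nrp2, chr1:62703067-62703316, plus strand: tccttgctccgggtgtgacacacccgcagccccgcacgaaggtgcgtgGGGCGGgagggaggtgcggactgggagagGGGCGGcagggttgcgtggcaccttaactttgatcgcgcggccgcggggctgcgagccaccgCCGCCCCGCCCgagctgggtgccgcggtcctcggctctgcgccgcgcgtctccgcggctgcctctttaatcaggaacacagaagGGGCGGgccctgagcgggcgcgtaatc
Sema6b, chr17:56140344-56140593, minus strand: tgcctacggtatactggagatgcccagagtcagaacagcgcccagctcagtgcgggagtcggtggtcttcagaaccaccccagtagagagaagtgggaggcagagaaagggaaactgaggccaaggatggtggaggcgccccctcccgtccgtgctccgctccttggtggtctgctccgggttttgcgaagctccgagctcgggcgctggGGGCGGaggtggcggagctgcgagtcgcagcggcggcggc
Ephb4, chr5:137349859-137350108, plus strand: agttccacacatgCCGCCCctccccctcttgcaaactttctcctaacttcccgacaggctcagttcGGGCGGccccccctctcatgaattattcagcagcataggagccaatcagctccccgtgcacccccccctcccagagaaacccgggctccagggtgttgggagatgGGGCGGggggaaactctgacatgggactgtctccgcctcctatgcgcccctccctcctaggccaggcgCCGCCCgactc
Sema5a, chr15:32244563-32244812, plus strand: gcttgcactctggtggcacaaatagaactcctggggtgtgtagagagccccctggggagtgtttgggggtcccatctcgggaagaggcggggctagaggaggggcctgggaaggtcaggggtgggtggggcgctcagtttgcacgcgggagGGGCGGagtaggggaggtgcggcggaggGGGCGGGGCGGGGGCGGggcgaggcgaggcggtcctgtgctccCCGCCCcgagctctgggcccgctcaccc
All 4 windows were rich in G and C, at 72.4%, 66.0%, 64.0% and 72.0%, against a median of 52.4% over the 32851 promoters of the table. They held 5, 1, 4 and 5 GC boxes and no match to the other 3 motifs. A GC box was present for 30 of the 40 members (75.0%) and for 32.7% of all promoters. CAGCTG was present for 5 members against 13.0% of all promoters, CAGATG for 2 against 14.4%, and TAATTA for 2 against 4.84%. Members had to reach 10 CPM and entered with 1 promoter each, and no such limit was set on the promoters of the table. These shares and the GC contents thus compare unlike sets. A match describes letters in this window and says nothing of binding.

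Guidance genes outside the 4 systems were set beside the members: of 83 listed (adhesion molecules, netrin and semaphorin transducers, cytoskeletal effectors), 77 were tested, 46 were called higher in high-Dcx cells, 9 lower and 22 neither, against 27.9% higher and 27.4% lower over all genes tested, with a median log2 fold change of 0.98. The 4 largest rises were the adhesion molecules Cntn2 (log2 fold change 6.08, edgeR adjusted p = 0.000249), Chl1 (log2 fold change 5.65, edgeR adjusted p = 0.000221) and L1cam (log2 fold change 5.19, edgeR adjusted p = 0.000704) and the membrane protein Islr2 (log2 fold change 5.08, edgeR adjusted p = 0.00132). The largest falls were Lrig1 (log2 fold change -2.93, edgeR adjusted p = 0.00294), Dock1, which couples Dcc to Rac, (log2 fold change -2.79, edgeR adjusted p = 0.000332), the small GTPase Rras on which plexins act (log2 fold change -2.65, edgeR adjusted p = 0.000715) and Rnd1, a plexin-binding GTPase (log2 fold change -1.90, edgeR adjusted p = 0.00798).

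Dividing and postmitotic Dcx cells of the eminences were then compared, to see where between the germinal zone and the mantle the guidance genes changed. Mantle zone (MZ) cells had high Dcx and low Nes, Hes5, Mki67, Ccnd1 and Ccnd2, subventricular zone (SVZ) cells had high Dcx with Mki67 and Ccnd2 and low Mapt and Rbfox3, and ventricular zone (VZ) cells had high Nes and lay outside both other gates. The VZ sums, of 618, 525 and 178 cells, thus include some cells with high Dcx that the high-Nes sums left out, and Nrp2 in CGE, for example, was at 9.43 CPM in VZ and 1.32 CPM in high-Nes cells. The sums held 384, 210 and 70 SVZ cells and 557, 839 and 1199 MZ cells in LGE, MGE and CGE, and CTX, with 14 SVZ cells, was not tested. Among 48 members tested, 25 were called higher in MZ cells and 6 lower, against 22.8% higher and 22.3% lower of all 11700 genes tested, with a median log2 fold change of 1.04 (0.02 over all genes). Here too the limit of 10 CPM was set on the members and not on all genes. The lower calls were Slit1, Plxnb2, Sema5a, Epha3, Sema5b and Epha4, and their count was 3 without LGE and 3 without CGE.

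In MZ cells Nrp2, Efna3, Sema3c, Sema6b and Unc5d rose from a few CPM or less. Their SVZ sums in LGE, MGE and CGE held few UMIs, so the sizes of these rises are poorly measured. There were 0, 3 and 4 UMIs of Nrp2, 2, 1 and 0 of Efna3, and 3, 0 and 2 of Sema3c. Sema6b had 8, 5 and 2 and Unc5d 4, 2 and 0. Nrp2 stood at 0, 1.51 and 5.53 CPM in SVZ and 5.96, 27.5 and 116 CPM in MZ cells of LGE, MGE and CGE (log2 fold change 4.42 ± 0.40, edgeR adjusted p = 1.72e-05), with CGE highest in both. Efna3 stood at 0.574, 0.505 and 0 CPM against 8.05, 6.28 and 11.2 CPM (log2 fold change 3.83 ± 0.55, edgeR adjusted p = 0.000351) and Sema3c at 0.860, 0 and 2.77 CPM against 15.2, 6.68 and 11.05 CPM (log2 fold change 3.81 ± 0.61, edgeR adjusted p = 0.000715). In both genes the 3 MZ values lay above the 3 SVZ values. Sema6b (2.29, 2.52 and 2.77 CPM against 26.8, 18.02 and 28.5 CPM, log2 fold change 3.18 ± 0.34, edgeR adjusted p = 5.29e-05) and Unc5d (1.15, 1.01 and 0 CPM against 5.96, 8.71 and 19.1 CPM, log2 fold change 3.18 ± 0.69, edgeR adjusted p = 0.00412) did the same. Epha5 stood at 65.1, 74.7 and 354 CPM in SVZ and 919.7, 908 and 1594 CPM in MZ cells (log2 fold change 3.11 ± 0.53, edgeR adjusted p = 0.00101), and its SVZ level in CGE was above those of LGE and MGE. In VZ cells Epha5 was at 306, 43.0 and 306 CPM, so SVZ cells were below VZ cells in LGE but not in MGE and CGE.

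Plxna2 and Sema4c had reached their high-Dcx level in SVZ cells already. Plxna2 stood at 102, 154 and 57.2 CPM in VZ, 364, 359.8 and 199 CPM in SVZ and 295, 333 and 217 CPM in MZ cells (MZ against SVZ, log2 fold change -0.18 ± 0.15, edgeR adjusted p = 0.347). Sema4c stood at 12.54, 15.5 and 13.2, then 36.7, 35.3 and 41.5, then 28.9, 32.0 and 39.6 CPM (log2 fold change -0.27 ± 0.16, edgeR adjusted p = 0.194). Neither difference between MZ and SVZ cells passed the test, and a difference was not shown to be absent by it.

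A group of members was high in VZ cells, low in SVZ cells and higher again in MZ cells. Ephb1, a receptor of ephrin-B ligands, stood at 79.8, 135 and 124 CPM in VZ, 4.01, 9.08 and 1.38 CPM in SVZ and 64.1, 26.1 and 49.8 CPM in MZ cells (MZ against SVZ, log2 fold change 2.99 ± 0.53, edgeR adjusted p = 0.00124). Sema6d, a ligand of Plxna1, stood at 25.1, 36.2 and 32.7, then 0.860, 2.02 and 4.15, then 25.0, 8.50 and 7.41 CPM (log2 fold change 2.92 ± 0.73, edgeR adjusted p = 0.00851). Sema6a followed the same course at 44.2, 65.4 and 111, then 7.74, 11.6 and 8.30, then 13.7, 14.2 and 33.0 CPM (log2 fold change 0.79 ± 0.26, edgeR adjusted p = 0.0313). The lowest value of each gene was in SVZ cells in all 3 libraries. These SVZ values rest on few UMIs in LGE, MGE and CGE: 14, 18 and 1 for Ephb1, 3, 4 and 3 for Sema6d, and 27, 23 and 6 for Sema6a. The fall from VZ to SVZ cells was not tested. Ephb1 and Sema6d were named here after their course was seen.

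Slit1 had the largest fall among the members called, from 14.3, 25.7 and 24.9 CPM to 1.19, 11.1 and 10.3 CPM (log2 fold change -1.61 ± 0.37, edgeR adjusted p = 0.00581), with LGE the lowest in both. Plxnb2 fell from 99.5, 75.7 and 91.3 CPM to 41.1, 46.0 and 36.9 CPM (log2 fold change -1.21 ± 0.18, edgeR adjusted p = 0.000463) and Sema5b from 27.0, 42.4 and 31.8 CPM to 10.4, 27.9 and 22.7 CPM (log2 fold change -0.85 ± 0.22, edgeR adjusted p = 0.00996). Epha3 fell from 198, 89.8 and 210.2 CPM to 68.9, 69.8 and 120.2 CPM (log2 fold change -0.97 ± 0.28, edgeR adjusted p = 0.0172), and the fall was least in MGE. Epha4 was at its highest in SVZ cells (260, 289 and 214 CPM in VZ, 429, 646 and 545 CPM in SVZ, 326, 641 and 327 CPM in MZ cells, log2 fold change -0.44 ± 0.15, edgeR adjusted p = 0.0371), although SVZ and MZ cells of MGE were nearly alike. The calls of Epha3 and Epha4 were lost without LGE and without CGE.

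**Figure D3:**
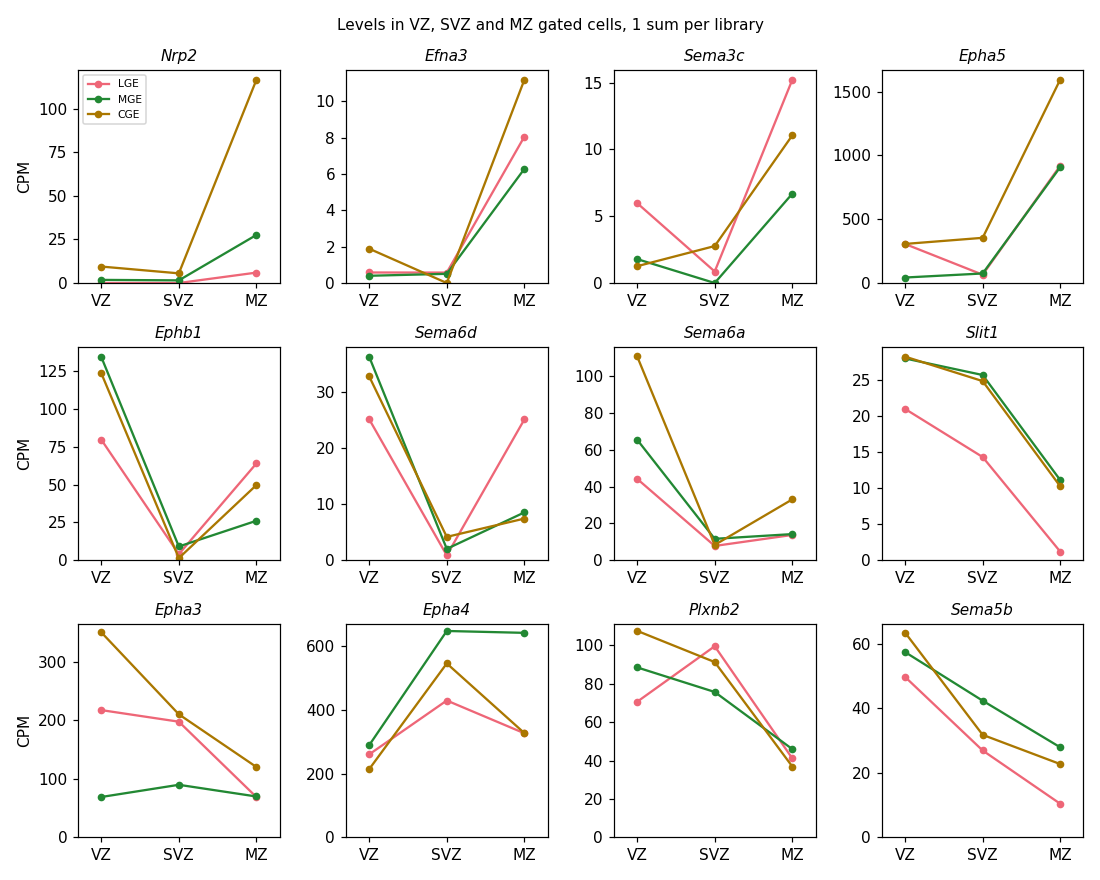
CPM of 12 members in VZ, SVZ and MZ cells, 1 line for each of LGE, MGE and CGE, with each vertical axis starting at 0. Nrp2, Efna3 and Sema3c rise at the MZ, Ephb1, Sema6d and Sema6a have their lowest point in SVZ cells, and Slit1 and Sema5b fall to the MZ.

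The regions were then set side by side within each class. With 1 library per region there is no test, and a member was said to stand apart where its highest level was at least 50 CPM and 1 library was at 2 or more times every other (high) or at 0.5 or less times every other (low). Intervals on ratios are exact conditional binomial 95% intervals and leave out any spread from one embryo, dissection or library to the next. In high-Nes cells 0 of 17 members at that level stood apart as high, against 2.65% of 4335 genes, and 7 as low, 5 in CTX and 2 in MGE, against 3.62%. In high-Dcx cells 6 of 22 stood apart as high, 5 in CTX and 1 in CGE, against 6.12% of 4349 genes, and 2 as low, 1 in CTX and 1 in LGE, against 4.92%. Markers of neuronal maturity differed between these libraries too. Mapt stood at 355, 301, 257 and 718 CPM, Rbfox3 at 219, 17.3, 23.1 and 80.3 CPM and Stmn2 at 1055, 1436, 705 and 954 CPM in high-Dcx cells. Region and maturity were not told apart.

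High-Nes cells of CTX were low in 5 members, the receptors Epha3 and Ephb1 and the ligands Ntn1, Sema6a and Efna5. Ntn1 was counted with 1 UMI in CTX and at 57.9, 32.6 and 15.2 CPM in LGE, MGE and CGE, and the ratio of CTX to CGE was 0.00895 (95% interval 0.000217 to 0.0551). After thinning each cell to 3000 UMIs, a UMI of Ntn1 was found in 15.4% of 559 cells (95% interval 12.49 to 18.6%, unthinned 34.1%) of LGE and 0.120% of 834 cells (95% interval 0.00304 to 0.666%, unthinned 0.116%) of CTX, at median depths of 8440 and 8482 UMIs, with 18 and 26 shallower cells left out. Epha3, a receptor of ephrin-A ligands (chr16:63543534-63864175, minus strand), stood at 10.0, 222, 67.3 and 358 CPM, with a ratio of CTX to MGE of 0.149 (95% interval 0.114 to 0.193). Sema6a stood at 5.30, 45.3, 65.7 and 114 CPM (CTX to LGE, 0.117 (95% interval 0.0809 to 0.165)) and Ephb1 at 13.6, 83.3, 136 and 129 CPM (CTX to LGE, 0.163 (95% interval 0.130 to 0.203)). Efna5, a ligand of Epha5, stood at 4.48, 59.5, 59.4 and 18.5 CPM, with a ratio of CTX to CGE of 0.243 (95% interval 0.142 to 0.417). MGE was the low library for Epha5, at 498, 316, 31.1 and 253 CPM (MGE to CGE, 0.123 (95% interval 0.101 to 0.149)), and for Sema5a, where the ratio of MGE to CGE was 0.464 (95% interval 0.304 to 0.714). In thinned cells the log2 ratio of Epha5 was -2.43, against -3.02 in all high-Nes cells.

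High-Dcx cells of CTX, which are young glutamatergic neurons by their markers, were highest in Epha3, Nrp1, Sema6d, Efna3 and Unc5d. Nrp1 stood at 273, 34.4, 54.9 and 64.4 CPM, with a ratio of CTX to CGE of 4.24 (95% interval 3.92 to 4.58), and Epha3 at 340.5, 116, 76.1 and 139 CPM, with a ratio to CGE of 2.46 (95% interval 2.31 to 2.61). Epha3 thus stood lowest in CTX among high-Nes cells and highest in CTX among high-Dcx cells, with a UMI after thinning in 2.88% of 834 cells (95% interval 1.85 to 4.25%, unthinned 7.44%) of the first and 58.4% of 764 cells (95% interval 54.8 to 61.9%, unthinned 79.5%) of the second. Median depths were 8482 and 7919 UMIs, and 26 and 13 shallower cells were left out. Sema6d stood at 64.6, 15.6, 5.34 and 8.05 CPM (CTX to LGE, 4.15 (95% interval 3.52 to 4.90)), Efna3 at 54.0, 4.65, 3.33 and 8.56 CPM (CTX to CGE, 6.31 (95% interval 5.16 to 7.76)) and Unc5d at 50.8, 3.87, 4.99 and 15.1 CPM (CTX to CGE, 3.36 (95% interval 2.83 to 3.98)). In MZ cells alone the log2 ratio of Nrp1 between CTX and the next library was 1.38, against 2.08 in all high-Dcx cells. All 5 were above every eminence, and the order of the eminences differed between the genes. Efna5 was the one low in CTX, at 11.5, 26.8, 73.5 and 38.9 CPM, with a ratio of CTX to LGE of 0.428 (95% interval 0.329 to 0.549).

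Nrp2 separated the eminences. It stood at 42.0, 3.03, 17.8 and 93.7 CPM in high-Dcx cells, with a ratio of CGE to CTX of 2.23 (95% interval 1.96 to 2.55) and of LGE to MGE of 0.170 (95% interval 0.120 to 0.235). A UMI was found after thinning in 20.6% of 2226 cells (95% interval 19.0 to 22.4%, unthinned 31.6%) of CGE and 0.950% of 1999 cells (95% interval 0.573 to 1.48%, unthinned 1.72%) of LGE, at median depths of 6738 and 6438 UMIs, with 32 and 36 shallower cells left out. In high-Nes cells of LGE the share was 0% of 559 cells (95% interval 0 to 0.658%, unthinned 0%). Restricted to MZ cells, the log2 ratio of CGE to the next library was 1.72. Mapt in MZ cells was at 479, 581, 422 and 928 CPM and Rbfox3 at 208, 34.3, 35.6 and 96.3 CPM. The part of maturity in the Nrp2 difference was not tested.

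**Figure D4:**
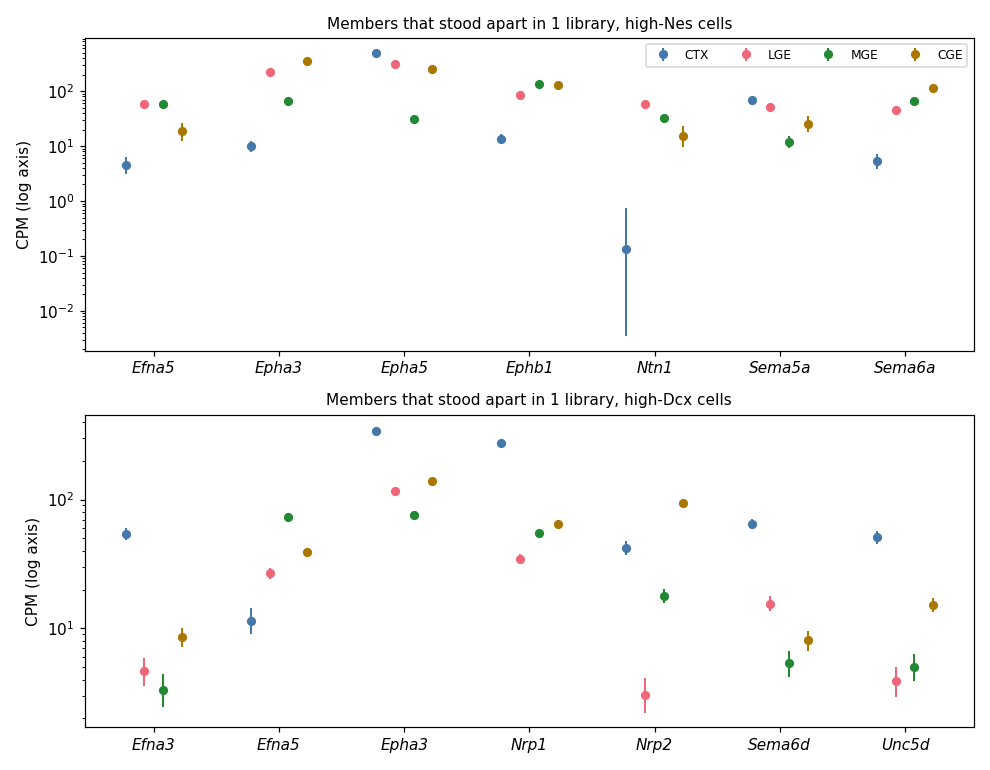
CPM (log axis) of the members that stood apart, in high-Nes cells (top) and high-Dcx cells (bottom), 1 point per library with its exact Poisson 95% interval as a bar. CTX is the low point for Ntn1, Epha3, Ephb1, Efna5 and Sema6a among high-Nes cells and the high point for Efna3, Epha3, Nrp1, Sema6d and Unc5d among high-Dcx cells.

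High-Dcx cells of 1 library hold several lineages, and the members were described by whether a cell held a UMI of a lineage gene. These splits have no test, the intervals cover counting error only, cells without a UMI may still express the lineage gene, and a UMI may come from free RNA. After thinning to 3000 UMIs, Ebf1 was found in 25.6% (23.7 to 27.6%) of high-Dcx and 2.50% (1.38 to 4.17%) of high-Nes cells of LGE, Lhx6 in 6.10% (5.09 to 7.24%) and 0% (0 to 0.658%) in LGE and 17.3% (15.8 to 19.0%) and 1.84% (0.381 to 5.28%) in CGE, and Lhx8 in 29.8% (27.9 to 31.8%) and 4.73% (3.06 to 6.96%) in MGE. Neurod6 or Neurod2 was found in 92.1% (90.0 to 94.0%) and 10.3% (8.33 to 12.6%) in CTX. Prox1 or Nr2f2 was found in 70.1% (68.1 to 72.0%) of high-Dcx and 66.3% (58.4 to 73.5%) of high-Nes cells of CGE, so it does not set these classes apart. Unthinned, these shares were 28.5%, 8.85%, 26.8%, 37.1%, 92.9% and 80.7% of high-Dcx and 6.59%, 0%, 4.24%, 9.02%, 21.4% and 87.9% of high-Nes cells in the same order, at median depths of 6346 to 7919 and 8440 to 9915 UMIs. In LGE, 579 cells had a UMI of Ebf1, a transcription factor of early striatal projection neurons, and 1456 had none. Cells with Ebf1 held more Sema3c (35.1 against 1.78 CPM, a ratio of 19.7 (95% interval 12.02 to 34.2)), Sema6d (41.4 against 5.05 CPM, a ratio of 8.20 (95% interval 5.97 to 11.4)) and Ephb1 (113 against 13.9 CPM, a ratio of 8.12 (95% interval 6.71 to 9.88)). Both Slit receptors were higher in them, Robo1 at 198 against 30.3 CPM, a ratio of 6.53 (95% interval 5.72 to 7.47), and Robo2 at 383 against 102 CPM, a ratio of 3.76 (95% interval 3.47 to 4.07). Efna5 was at 47.0 against 18.5 CPM, a ratio of 2.54 (95% interval 2.07 to 3.12). Efnb1, in contrast, was at 119.9 against 256 CPM, a ratio of 0.468 (95% interval 0.424 to 0.515), and Slit1 at 2.19 against 8.72 CPM, a ratio of 0.252 (95% interval 0.111 to 0.4998). With every cell thinned to 3000 UMIs before the split, Robo1 had a ratio of 5.73, Ephb1 of 7.66 and Sema3c of 10.2. That of Slit1 was 0.0880 (0.00216 to 0.526).

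The 180 LGE cells with a UMI of Lhx6, a factor of interneurons born in the MGE, are described next. Epha5 was at 2105 against 290.4 CPM, a ratio of 7.25 (95% interval 6.88 to 7.64), while Nrp1 was at 6.37 against 36.7 CPM, a ratio of 0.173 (95% interval 0.0694 to 0.360) and Ephb1 at 4.55 against 45.6 CPM, a ratio of 0.0998 (95% interval 0.0323 to 0.234). Efnb3, a transmembrane ephrin, was at 83.7 against 34.0 CPM, a ratio of 2.46 (95% interval 1.94 to 3.08), and Epha4 at 228 against 427 CPM, a ratio of 0.535 (95% interval 0.470 to 0.607). In CGE, where 606 of 2258 high-Dcx cells had a UMI of Lhx6, Epha5 was at 2455 against 952 CPM, a ratio of 2.58 (95% interval 2.51 to 2.65) and Ephb1 at 12.2 against 47.2 CPM, a ratio of 0.259 (95% interval 0.190 to 0.346). After thinning the ratio of Ephb1 in LGE was 0.0644 (0.00162 to 0.362). Epha5 was thus higher and Ephb1 lower in the Lhx6 cells of both libraries, whereas Nrp1 was lower in those of LGE and not in those of CGE (86.9 against 56.4 CPM, a ratio of 1.54 (95% interval 1.35 to 1.76)).

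Within MGE, the 805 cells with a UMI of Lhx8, a factor of cholinergic and other projection neurons, were set against 1055 cells with Lhx6 and no Lhx8. Dcc was at 30.2 against 7.44 CPM, a ratio of 4.06 (95% interval 2.95 to 5.66), and Efnb3 at 113 against 60.2 CPM, a ratio of 1.88 (95% interval 1.66 to 2.13). Epha5 was lower in Lhx8 cells at 269.6 against 782 CPM, a ratio of 0.345 (95% interval 0.326 to 0.365), and so was Epha3 at 47.0 against 97.0 CPM, a ratio of 0.484 (95% interval 0.418 to 0.559). Robo1 and Robo2 differed little, with ratios of 1.10 (0.959 to 1.27) and 0.988 (0.909 to 1.07).

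Within CGE, 1823 cells had a UMI of Prox1 or Nr2f2, factors of caudal interneurons, and 435 had none of either. Nrp2 was at 107 against 36.9 CPM, a ratio of 2.89 (95% interval 2.37 to 3.55), and Slit1 at 15.3 against 5.18 CPM, a ratio of 2.95 (95% interval 1.75 to 5.38). Robo2 was lower at 64.5 against 317 CPM, a ratio of 0.204 (95% interval 0.185 to 0.224), as were Ephb1 at 22.9 against 105 CPM, a ratio of 0.219 (95% interval 0.186 to 0.258) and Sema3f at 6.51 against 31.4 CPM, a ratio of 0.207 (95% interval 0.152 to 0.282). Nrp2 was thus higher and its ligand Sema3f lower in the cells with Prox1 or Nr2f2, and both genes were counted in both groups.

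**Figure D5:**
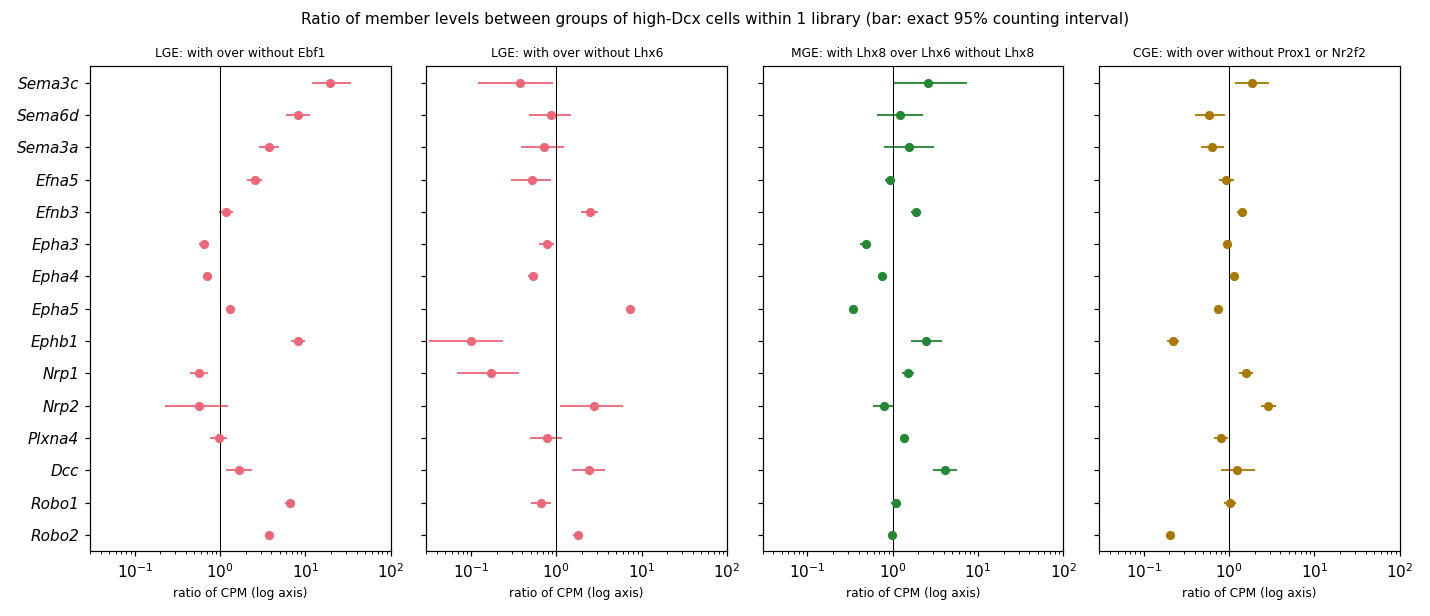
Ratio of CPM (log axis) of 15 members between 2 groups of high-Dcx cells of 1 library, with the exact conditional binomial 95% interval as a bar. In LGE, Sema3c, Sema6d, Ephb1, Robo1 and Robo2 lie to the right of 1 in cells with Ebf1 and Epha5 in cells with Lhx6, and in CGE Nrp2 lies to the right and Robo2 and Ephb1 to the left in cells with Prox1 or Nr2f2.

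In CTX, 722 high-Dcx cells had a UMI of Neurod6 or Neurod2, factors of glutamatergic neurons, and 50 had Gad2, Dlx5 or Dlx2 and neither of those. The 50 cells held 266714 UMIs, so low members are poorly measured in them. Epha4 was counted with 1928 UMIs in the first group and 1 in the second, at 308 against 3.75 CPM, a ratio of 82.2 (95% interval 14.7 to 3249). Plxna4 was at 146 against 7.499 CPM, a ratio of 19.5 (95% interval 5.37 to 161), and Nrp1 at 285 against 26.2 CPM, a ratio of 10.8 (95% interval 5.25 to 27.0). The GABAergic cells of CTX were higher in Epha5 (1152 against 2148 CPM, a ratio of 0.536 (95% interval 0.492 to 0.585)), Sema6c (62.7 against 169 CPM, a ratio of 0.371 (95% interval 0.272 to 0.518)) and Efnb3 (22.7 against 63.7 CPM, a ratio of 0.356 (95% interval 0.215 to 0.629)). With cells holding Gad2, Dlx5 or Dlx2 removed from CTX, the counts of members that stood apart among high-Dcx cells were again 6 high and 2 low.

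Pairs of members were last described within single high-Dcx cells, again with no test. Robo2 and Robo1 were found apart in CTX and together in the eminences. In CTX, Robo2 stood at 59.0 CPM in the 135 cells with a UMI of Robo1 and 244 CPM in the 642 without, a ratio of 0.242 (95% interval 0.192 to 0.301). The ratio was 2.70 (2.50 to 2.92) in LGE, 1.34 (1.24 to 1.45) in MGE and 1.69 (1.54 to 1.87) in CGE. Cells of CTX with Robo1 were deeper, at a median of 11410 UMIs against 7526, and with every cell thinned to 3000 UMIs the ratio was 0.143 (0.0463 to 0.336) over 48 cells with Robo1 and 716 without.

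Nrp2 was higher in cells with a UMI of Nrp1. Nrp2 had a ratio between cells with and without Nrp1 of 7.14 (4.76 to 11.1) in CTX and 2.12 (1.91 to 2.36) in CGE. It was 1.57 (1.18 to 2.07) in MGE and 2.08 (0.972 to 4.16) in LGE, where the interval included 1. After thinning, the ratios of CTX and CGE were 2.16 (1.44 to 3.27) and 2.63 (2.21 to 3.12). Those of MGE and LGE were 1.58 (0.899 to 2.63) and 2.34 (0.440 to 8.10). Plxna4 was higher in cells with a UMI of Sema6d in CTX, at 237 against 93.8 CPM, a ratio of 2.52 (2.21 to 2.88), and in LGE (2.98, 2.32 to 3.80), while the interval in MGE included 1 (0.737 to 1.40). In CGE the ratio was 1.84 (1.37 to 2.43), and after thinning 1.61 (0.687 to 3.22). Epha5 was lower in LGE cells with Epha4 than without, at 312 against 937 CPM, a ratio of 0.333 (0.317 to 0.351), and of 0.780 to 0.850 in the other 3 libraries. After thinning the ratio was 0.912 (0.848 to 0.982) in CTX, 0.482 (0.448 to 0.520) in LGE, 0.951 (0.888 to 1.02) in MGE, where the interval included 1, and 0.879 (0.844 to 0.915) in CGE.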

How the data were processed

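Raw UMI counts per gene and cell barcode were deposited by the authors for 4 libraries of the Chromium 3' assay, with Cell Ranger as the tool (version 3.0.2 in the headers of the files and 3.0.0 in the submitters' processing notes) and mm10 as the genome. The kit version of each library, the annotation release and the use of strand in counting are not given in the sources used here, and 10 of the 50 members overlap exons of another gene, itself at no more than 6.66 CPM. The members and gene lists were chosen with earlier results of these data known. Barcodes were kept with 1500 to 4500 genes, under 5% mitochondrial and under 1% Hbb UMIs, and predicted doublets were removed at 0.8% per 1000 barcodes, which left 3478, 4635, 4727 and 3182 cells in CTX, LGE, MGE and CGE (median 6937 to 8222 UMIs).

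Counts were summed per library and class. Sums were tested with edgeR 4.0.16 (quasi-likelihood, TMM, filterByExpr, library as a block, Benjamini-Hochberg adjustment over all genes tested) in R 4.3.3, with DESeq2 1.42.0 as an alternative. Errors of log2 fold changes are standard errors from the fit, over 8 sums between classes and 9 in the MZ comparison. On data simulated for 12311 genes of the class test, 60 of 100 genes changed by log2 1 and 99 of 100 changed by log2 2 were recovered, with 11 false among 170 calls. For the MZ test on 11700 genes these were 74, 98 and 19 of 191. Both simulations drew all libraries from 1 profile, without region differences, and changed 100 genes at each size, none of them at the lowest levels. In the data far more genes were called, so these rates may not hold there. CPM have exact Poisson, ratios exact conditional binomial and shares exact Clopper-Pearson 95% intervals, all of which cover counting error only. Named members were up to 12 of the largest rises and falls of the class test and up to 6 each of the MZ test among those called with the same direction in every library, those standing apart by region, and the highest of each family. Alternatives changed the scaling, filter, block, gates, depth, doublets, upper gene limit, non-neural cells and libraries. Gene positions are from GENCODE M21 (GRCm38), which lacked Ntn3, and promoters from RefSeq.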

Additional observations from a re-analysis of the deposited data

Results flagged for a closer look

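Sema6d, Sema6a, Slit1 and Plxnd1 were picked out because their class difference in CTX went opposite to that in all 3 eminences, by a log2 ratio of high-Dcx to high-Nes cells of at least 1 in CTX. With 1 library per region this difference was not tested. Robo3 also went opposite ways, but down in CTX and up in the 3 eminences, and its values are given above. Slit1, a repellent ligand of Robo receptors, had log2 ratios of 6.60 in CTX and -1.62, -0.69 and -1.01 in LGE, MGE and CGE. Its CTX ratio rests on 2 UMIs in high-Nes cells against 173 in high-Dcx cells (0.272 against 26.4 CPM). Sema6d had log2 ratios of 5.09 in CTX and -0.76, -2.78 and -2.09 in the eminences, and its CTX levels were 1.90 against 64.6 CPM. Sema6a had 1.01 in CTX against -2.09, -2.16 and -1.94, with 39 and 70 UMIs in CTX. Plxnd1 had 2.46 in CTX (3.39 against 18.6 CPM) against -0.52, -3.54 and -2.05, but in each eminence its sums held 2 to 8 UMIs only. Markers of Cajal-Retzius cells, which are early cortical neurons, were summed at 75.6 CPM in high-Dcx cells of CTX and 30.8 to 51.3 CPM in those of the eminences, and their part in these values was not tested.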

How the results depend on the processing

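The count of members called higher in high-Dcx cells (23) was 17 to 25 under every alternative run, and that of members higher in MZ cells (25) was 19 to 27. Shares called over all genes are not given for the alternatives. Lower calls were fewer and moved more: 4 to 11 between classes and 3 to 8 between MZ and SVZ cells when 1 library was left out, and 3 and 2 without the library block, where Ntn1, Efnb1 and Sema5b were no longer called between classes and the cause was not tested. Members standing apart depended on the limits. Among high-Nes cells, high members numbered 2 with the gate at 2.0, 6 at a fold of 1.5 and 2 at a minimum of 10 CPM, where 14 were low. Among high-Dcx cells, a fold of 1.5 gave 11 high and 9 low, and a minimum of 10 CPM gave 15 high and 8 low, as looser limits must give more. Low members numbered 4 in thinned cells and 4 in MZ cells. Of 385 refitted log2 fold changes of members named for the size of their change, 364 stayed on their side of the threshold, 21 were no longer past it and 0 changed sign. Thinning before pairs of members were formed, an alternative chosen after seeing the data, changed the side of 1 for 5 of the 33 ratios whose interval left out 1, to log2 ratios within 0.20 of 0. It did so for 5 of the 13 whose interval included 1 and that were defined after thinning. The first 5 were Ephb1 by Efnb2 at -0.20 in CTX and -0.0946 in MGE, Plxna4 by Plxna2 at 0.12 in LGE, Nrp1 by Sema3a at -0.0671 in MGE, and Epha5 by Efna5 at 0.0436 in CGE. In splits by lineage, 151 ratios had an interval that left out 1, and 144 of them were defined after the same thinning. Of those, 5 changed side, among them Sema6d and Epha4 by Prox1 or Nr2f2 in CGE, to log2 ratios of 0.13 and -0.0286. Among the 8 sums of the class test, the 165 high-Nes cells of CGE set the poorest precision, where 1 UMI was worth 0.660 CPM. The SVZ sum of CGE in the MZ test was smaller, with 70 cells and 723171 UMIs, and 1 UMI there was worth 1.38 CPM. Some groups of the lineage splits, such as the GABAergic cells of CTX, were smaller still.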
